A study of Mus musculus with 5 samples.

Results

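Box H/ACA small nucleolar RNAs (snoRNAs), and the genes of the proteins that build their particles, were examined in RNA recovered together with SMN, the survival of motor neuron protein. The snoRNA genes were those whose symbol starts with Snora and a number and which have a probe set carrying no other symbol, 20 in all. The protein genes were 15 listed symbols, so that 35 of the 19937 genes with a probe set of their own were covered. Each gene was read from the probe set with the highest mean value over the arrays. No filter on low values was applied, and all 35 lay above the median of the presumed control probe sets on every array.

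Box H/ACA snoRNAs fold into hairpins that pair with other RNA, chiefly ribosomal RNA, and direct the change of a chosen uridine to pseudouridine. The chemistry is done by the enzyme dyskerin (Dkc1), which sits on each RNA with Gar1, Nhp2 and Nop10. Most vertebrate H/ACA RNAs are cut from introns of other genes and are joined by Dkc1, Nhp2 and Nop10 during transcription. They pass through Cajal bodies, where SMN also gathers, on the way to the nucleolus.

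The cells were NSC-34, a mouse hybrid line of neuroblastoma and spinal cord motor neurons. The 3 FLAG-SMN IP arrays came from cells carrying a construct for full-length SMN with a 3XFLAG tag, and the 2 control IP arrays from cells with no FLAG construct. Cells of both groups were kept in 1% serum to differentiate (the labels give 3 days in one place and 48 hours in another), had 3 days of 3 µg/ml doxycycline, were irradiated with 400 mJ/cm2 of ultraviolet light, and were lysed for precipitation with anti-FLAG M2 beads. The labels do not say whether the tagged line was 1 clone or whether each replicate had its own culture, so the p-values cover only the scatter of these arrays, part or all of which may be technical. The lysates before precipitation were not analysed here, so the amount of an RNA in the cells and its recovery with SMN cannot be told apart.

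Values are on the log2 scale of the deposited, RMA-normalised table, where a difference of 1 is a doubling of signal. Array medians over 28187 probe sets spanned 5.25 to 5.39. Within FLAG-SMN IP, replicate 1 was the least like the others, with Pearson r = 0.964 and 0.968 to replicates 2 and 3, which correlated with each other at r = 0.989 across probe sets. Group results are therefore given with and without that array. Of 10 motor neuron markers, 6 (Slc18a3, Isl1, Nefh, Nefm, Nefl and Prph) lay above the presumed control median on every array, and Mnx1 and Stmn2 lay below it on every array. Of 5 glial markers 1 (Mbp), and of 5 fibroblast markers 3 (Col1a1, Col1a2 and Col3a1), also lay above that median on every array. Lying above it therefore does not by itself set these cell types apart. The 5 measured noradrenergic neuroblastoma markers lay above it throughout. Their summed linear signal was 1468 to 1779 in FLAG-SMN IP and 1695 to 2012 in control IP, with 1 of the 5 higher and 2 lower at an unadjusted limma p below 0.05. The 2 were enzymes of noradrenaline synthesis, Th and Dbh. Th was at 5.44, 4.58 and 4.80 in FLAG-SMN IP and 6.91 and 6.85 in control IP, a log2 difference of -1.94 (limma adjusted p = 0.0957). Dbh was at 4.94, 5.38 and 5.33 in FLAG-SMN IP and 6.91 and 7.98 in control IP, a log2 difference of -2.23 (limma adjusted p = 0.11). The groups did not overlap for either gene, and both passed the adjusted threshold without FLAG-SMN IP replicate 1 (limma adjusted p = 0.0085 for Th and 0.0386 for Dbh). Of the 10 motor neuron markers, 1 was lower (Nefh, -0.89) and 0 higher at an unadjusted limma p below 0.05. Without that array 3 were lower (Nefh, Nefm and Nefl) and 0 higher. Among all probe sets, 4.14% were higher and 6.31% lower with all arrays, and 5.92% and 7.3% without that array. The part of these differences in the results below was not tested.

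None of the 20 snoRNAs passed the adjusted test between the precipitates with all 5 arrays, and their values were spread widely within FLAG-SMN IP. In FLAG-SMN IP replicates 2 and 3 the snoRNAs had median values of 9.11 and 9.45. In FLAG-SMN IP replicate 1 the median was 7.03, and the control IP arrays had medians of 8.46 and 7.54. FLAG-SMN IP replicate 1 thus lay below both controls, while replicates 2 and 3 lay above both. All 20 snoRNAs were lower in replicate 1 than the mean of replicates 2 and 3, by gaps of -0.37 (Snora70) to -3.74 (Snora21) with a median of -2.03. The median gap over all probe sets was 0.025. For 16 of the 20 the gap exceeded 1 log2 unit, which held for 3.41% of all probe sets. For 15 of the 20, replicate 1 was the lowest of the 5 arrays, against 24.2% of all probe sets.

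**Figure D1:**
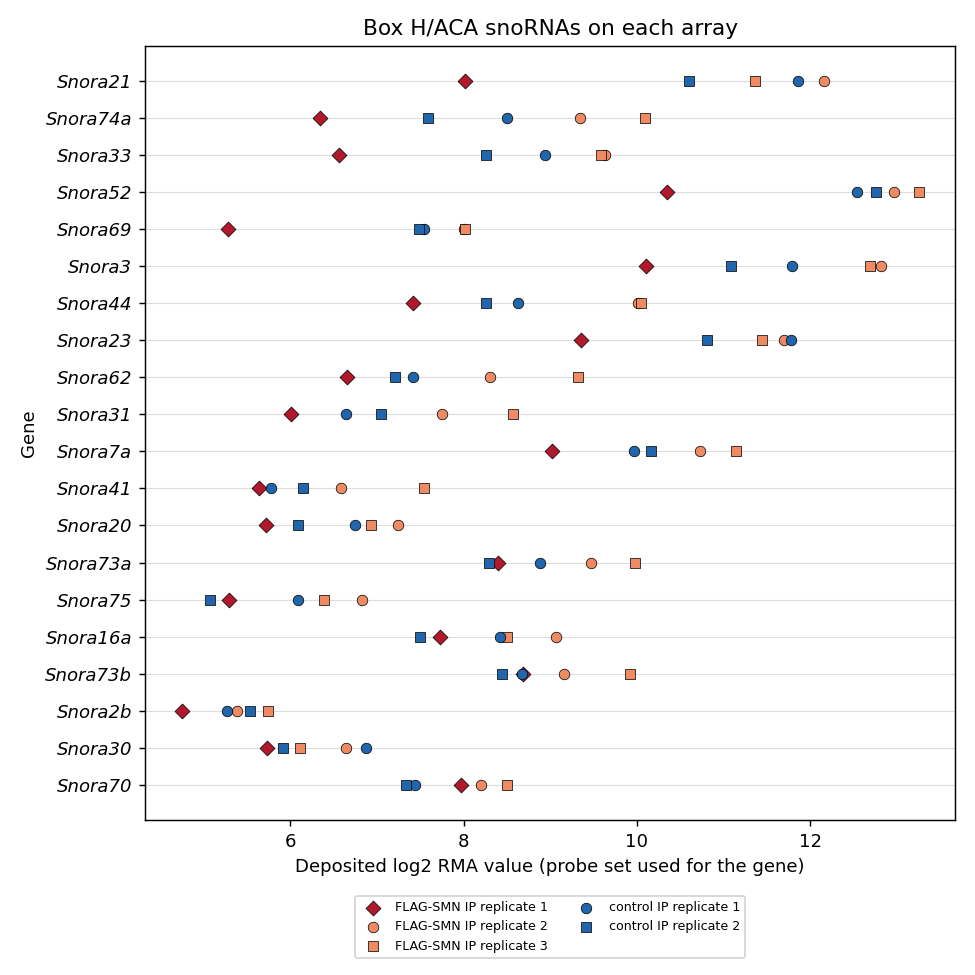
Deposited log2 values of the 20 box H/ACA snoRNAs (rows, ordered by the gap of FLAG-SMN IP replicate 1) on each of the 5 arrays; each point is 1 array. FLAG-SMN IP replicate 1 (dark diamonds) is the lowest array for 15 of 20 snoRNAs, while FLAG-SMN IP replicates 2 and 3 lie above both control IP arrays for 16.

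With all 5 arrays, the median log2 difference of the 20 snoRNAs (FLAG-SMN IP minus control IP) was 0.45, against 0.018 over all probe sets. Differences were positive for 13 and negative for 7. In limma, 1 of the 20 was higher and 0 were lower at an unadjusted p under 0.05, where 4.14% of all probe sets were higher and 6.31% lower. None passed after Benjamini-Hochberg adjustment over all 28187 probe sets (lowest limma adjusted p = 0.238), a threshold that 0.0319% of all probe sets passed. All FLAG-SMN IP arrays lay above both control IP arrays for 2 snoRNAs, Snora70 and Snora73b, and below both for 0. Over all probe sets these shares were 12.1% and 13.2%.

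Snora70, which lies within the ribosomal protein gene Rpl10, was the 1 snoRNA at an unadjusted p under 0.05. Its values were 7.97, 8.20 and 8.50 in FLAG-SMN IP and 7.44 and 7.34 in control IP, so the groups did not overlap. The log2 difference was 0.83 (SE 0.21, 95% confidence interval 0.32 to 1.34; limma adjusted p = 0.238), a 1.78-fold higher signal that did not pass the adjusted threshold. It was also the snoRNA with the smallest gap of FLAG-SMN IP replicate 1, -0.37. On the other 4 arrays the difference was 0.95 (limma adjusted p = 0.0902).

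Snora73a and Snora73b are the mouse U17 RNAs, H/ACA RNAs known for their part in cutting the ribosomal RNA precursor and not for guiding a uridine change. They lie together within Snhg3, and as close copies they may share signal. Snora73b was at 8.69, 9.16 and 9.92 in FLAG-SMN IP and 8.67 and 8.44 in control IP. Snora73a was at 8.40, 9.47 and 9.98 in FLAG-SMN IP and 8.88 and 8.29 in control IP. In Snora73b the lowest FLAG-SMN IP array was barely above the higher control array, and in Snora73a FLAG-SMN IP replicate 1 lay between the controls. Both had a log2 difference of 0.70 (SE 0.35 and limma adjusted p = 0.582 for Snora73b; SE 0.46 and limma adjusted p = 0.73 for Snora73a).

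The next snoRNAs by p lie within genes of the translation machinery or the nucleolus. Snora41, within the elongation factor gene Eef1b2, was at 5.64, 6.58 and 7.54 in FLAG-SMN IP and 5.78 and 6.15 in control IP. Snora75, within the nucleolin gene Ncl, was at 5.29, 6.83 and 6.38 in FLAG-SMN IP and 6.09 and 5.07 in control IP. Snora62, within Rpsa, which encodes a protein of the small ribosomal subunit, was at 6.65, 8.30 and 9.31 in FLAG-SMN IP and 7.41 and 7.21 in control IP. In each, replicates 2 and 3 lay above both controls and replicate 1 did not. Their log2 differences were 0.62, 0.59 and 0.78 (limma adjusted p = 0.822, 0.833 and 0.848).

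The snoRNAs with the lowest differences were Snora21, Snora52 and Snora23. Snora21, within Rpl23, was at 8.02, 12.15 and 11.36 in FLAG-SMN IP and 11.86 and 10.60 in control IP. Snora52, within Rplp2, was at 10.34, 12.96 and 13.25 in FLAG-SMN IP and 12.54 and 12.76 in control IP. Snora23, within the nuclear import gene Ipo7, was at 9.36, 11.70 and 11.45 in FLAG-SMN IP and 11.78 and 10.81 in control IP. Their negative differences of -0.72, -0.47 and -0.46 (limma adjusted p = 0.945, 0.954 and 0.941) came with a single low FLAG-SMN IP array, replicate 1, and without it they were 0.53, 0.45 and 0.28. The second probe set of Snora21 showed the same low array, with 5.44, 7.99 and 8.03 in FLAG-SMN IP and 6.61 and 6.80 in control IP, but a positive difference of 0.45. Without FLAG-SMN IP replicate 1 this probe set differed by 1.31 and passed the adjusted threshold (limma adjusted p = 0.0316), which the brighter probe set of the gene did not (limma adjusted p = 0.747).

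Snora3, within Rpl27a, was taken as one of the 3 with the highest mean value, the others being Snora52 and Snora23. Its values were 10.10, 12.82 and 12.69 in FLAG-SMN IP and 11.78 and 11.09 in control IP. Its difference was 0.43 over all arrays and 1.32 without FLAG-SMN IP replicate 1 (limma adjusted p = 0.0739). Its second probe set was at 8.91, 11.03 and 11.14 in FLAG-SMN IP and 10.59 and 10.35 in control IP, with a difference of -0.11.

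Leaving out FLAG-SMN IP replicate 1 gave another picture of the same 20 snoRNAs. Their median difference was then 0.97, against 0.0086 over all probe sets, and 19 of 20 were positive, Snora30 being the exception at -0.018. Of the 20, 15 were higher and 0 were lower at an unadjusted p under 0.05, where 5.92% of all probe sets were higher and 7.3% lower. FLAG-SMN IP replicates 2 and 3 both lay above both control arrays for 16 of 20 and below both for 0, against 20.3% of all probe sets in each direction. One passed the adjusted threshold on the probe set used for its gene, which 0.564% of all probe sets passed in this direction and 0.678% in the other.

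That snoRNA was Snora44, which lies within Snhg12 beside Snora16a. Its values were 7.41, 10.02 and 10.04 in FLAG-SMN IP and 8.63 and 8.26 in control IP. FLAG-SMN IP replicate 1 was the lowest array and replicates 2 and 3 the highest. Over all 5 arrays the difference was 0.71 (limma adjusted p = 0.89), and without replicate 1 it was 1.59 (SE 0.21, 95% confidence interval 1.09 to 2.09; 3.00-fold; limma adjusted p = 0.0233). Snora74a, within Snhg4, had the highest difference on those 4 arrays, 1.67 (SE 0.36; limma adjusted p = 0.091), and values of 6.34, 9.34 and 10.09 in FLAG-SMN IP against 8.51 and 7.59 in control IP. These 2 snoRNAs were singled out after their values were seen.

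**Figure D2:**
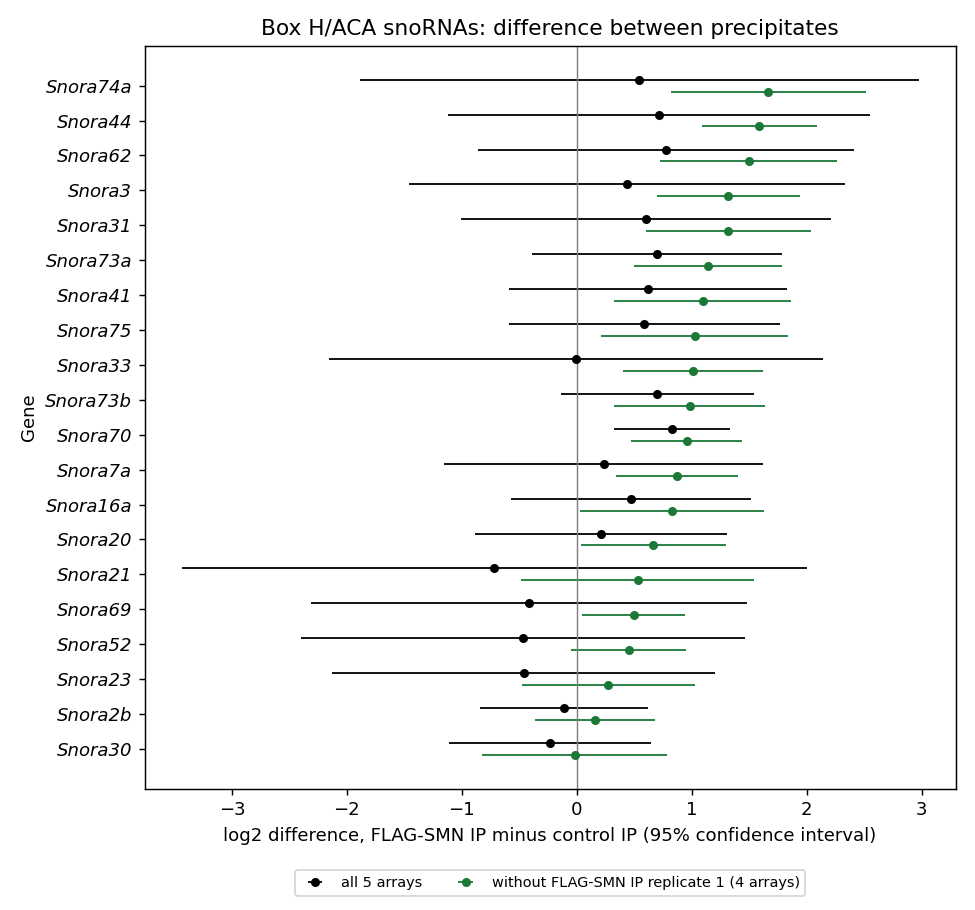
Log2 difference (FLAG-SMN IP minus control IP) of each box H/ACA snoRNA with its 95% confidence interval from limma, over all 5 arrays (black) and without FLAG-SMN IP replicate 1 (green). Over all arrays the interval of Snora70 (0.32 to 1.34) lies above 0, and without replicate 1 the intervals of 15 of 20 do.

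The result depended on which array was left out. Without FLAG-SMN IP replicate 2 or 3 the median of the 20 differences was 0.087 or 0.030, and without control IP replicate 1 or 2 it was 0.49 or 0.081. Without FLAG-SMN IP replicate 2 or 3, 1 snoRNA, Snora70, was at an unadjusted p under 0.05. The share of all probe sets at that p was not counted in those fits. With 1 control array left, the difference of Snora70 was 0.88 without control IP replicate 1 and 0.78 without control IP replicate 2. The control arrays also differed from each other on these RNAs, with replicate 1 above replicate 2 for 15 of 20 and a median difference (replicate 1 minus replicate 2) of 0.48, against 0.068 over all probe sets.

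In the other 8 snoRNAs FLAG-SMN IP replicate 1 was again below replicates 2 and 3, by differing amounts. Snora33 (within Rps12), Snora69 (within Rpl39), Snora31 (within Tpt1) and Snora7a (within Rpl32) had gaps of replicate 1 of -3.05, -2.73, -2.15 and -1.92. Snora20 (within the chaperonin gene Tcp1) and Snora16a (within Snhg12) had gaps of -1.36 and -1.06. The gaps of Snora2b (within Kansl2) and Snora30 (within Srcap), at -0.82 and -0.65, were among the 4 smaller than 1 log2 unit, together with those of Snora73b and Snora70. In Snora2b and Snora30 replicates 2 and 3 did not both lie above the controls, with 5.39 and 5.74 against 5.27 and 5.53 for Snora2b and 6.64 and 6.11 against 6.88 and 5.91 for Snora30. In Snora16a replicate 1 (7.72) lay above control IP replicate 2 (7.49). Differences over all arrays were -0.0045 for Snora33, -0.42 for Snora69, 0.60 for Snora31, 0.23 for Snora7a, 0.21 for Snora20, 0.47 for Snora16a, -0.11 for Snora2b and -0.23 for Snora30.

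All 20 snoRNAs lie within another gene of the mouse RefSeq annotation, and for 13 that gene had a probe set of its own. The table gives no strand, so containment is by position. In FLAG-SMN IP replicate 1 the snoRNA had a lower gap than its containing gene in 13 of 13 pairs. The median gap was -2.15 for these snoRNAs and 0.12 for the containing genes, whose gaps ran from -0.50 (Srcap) to 0.94 (Tcp1). Of the 13 containing genes, 6 had a gap below 0 and 0 had one below -1, and in Srcap and Tpt1 replicate 1 was the lowest of the 5 arrays. Rpl27a, for example, was read from the brightest of its 9 probe sets. That probe set was at 12.42, 12.10 and 12.14 in FLAG-SMN IP, while Snora3 was at 10.10, 12.82 and 12.69 on the same arrays. Its ID is far from that of Snora3, so it may read a copy of Rpl27a elsewhere in the genome.

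**Figure D3:**
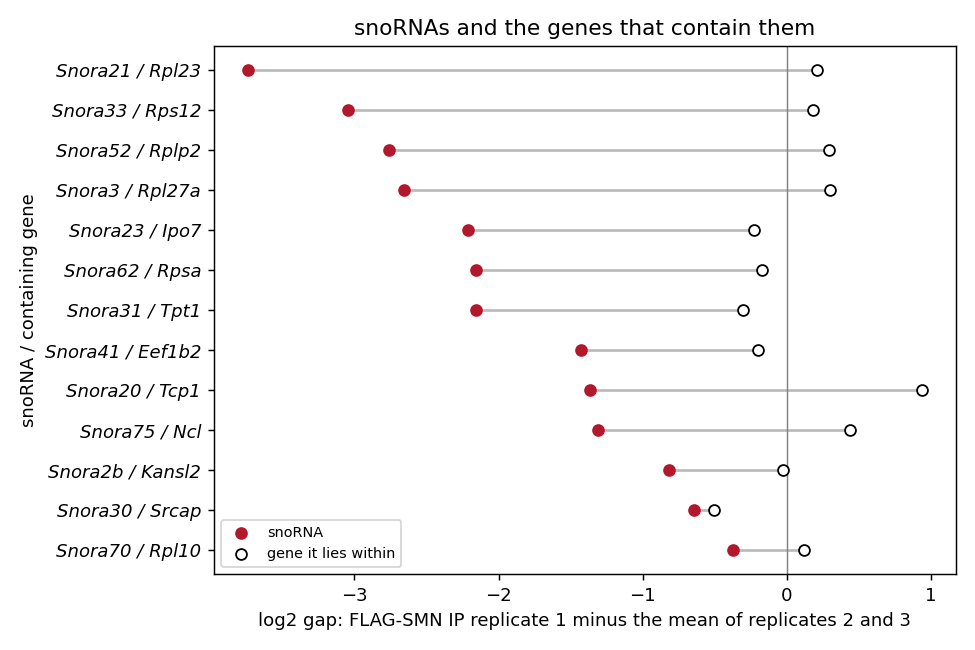
Gap of FLAG-SMN IP replicate 1 from the mean of replicates 2 and 3 (log2) for 13 snoRNAs (red) and for the gene each lies within (open circles). Each gene is read from its brightest probe set, which for some may read a copy elsewhere in the genome. Every red point lies left of its open circle, and the containing genes lie between -0.50 and 0.94.

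Between the precipitates, the containing genes had a median log2 difference of 0.014 (0.068 without FLAG-SMN IP replicate 1), with 1 of 13 higher (Rpl27a, 0.53) and 1 lower (Kansl2, -0.48) at an unadjusted p under 0.05 in limma, where 4.14% of all probe sets were higher and 6.31% lower. The snoRNA difference exceeded that of its containing gene in 7 of 13 pairs, with a median of 0.26 for snoRNA minus containing gene. Without FLAG-SMN IP replicate 1 it did so in 12 of 13, with a median of 0.69, Ipo7 and Snora23 being the exception at -0.029. Leaving out FLAG-SMN IP replicate 2 or 3 gave medians of 0.13 or -0.088, and leaving out control IP replicate 1 or 2 gave 0.36 or -0.17, so the sign of this median turned with the array left out. With the mean of a gene's probe sets it was 0.065. The difference within these pairs was not tested. Several containing genes encode ribosomal proteins with near-identical processed pseudogenes, so their probe sets are uncertain. For Rpl27a, Rpl23, Tpt1, Rps12 and Rpsa the brightest probe set has an ID far from that of the snoRNA. Those pairs may therefore compare a snoRNA with a copy of its containing gene and not with the gene around it. RNA of an intron before the snoRNA is cut out was not measured separately.

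Other RNAs can be set beside the H/ACA snoRNAs. The 31 box C/D snoRNAs, the class that guides methylation, had a median gap of replicate 1 of -0.17. For 9 of the 31 the gap was below -1, against 3.41% of all probe sets, so large drops were not confined to the H/ACA class. Their gaps ran from -6.58 to 2.07, so that the lowest was below that of any of the 20 H/ACA snoRNAs. Their median difference was 0.91, and the unadjusted p was below 0.05 for 17 with a positive difference and for 0 with a negative one. Among all probe sets these shares were 4.14% and 6.31%. Without FLAG-SMN IP replicate 1 the median difference of the 31 was 1.08. Then 22 were higher and 0 lower at an unadjusted limma p under 0.05, against 5.92% and 7.3% of all probe sets. The adjusted threshold was then passed by 10 with a positive and 0 with a negative difference, against 0.564% and 0.678%. Telomerase RNA (Terc), whose vertebrate form ends in an H/ACA domain bound by the same proteins, was at 6.03, 12.76 and 12.66 in FLAG-SMN IP and 12.04 and 11.92 in control IP. Its gap of -6.68 was the lowest among all 28187 probe sets. Scarna13 and Scarna8, of the H/ACA type in human, had gaps of -3.11 and -1.77, whereas Scarna17, of the C/D type in human, had -0.065. The difference between these classes was not tested.

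The protein genes showed no common shift. Their median log2 difference was 0.011 over 15 genes, with 8 positive and 7 negative, and FLAG-SMN IP replicate 1 had a median gap of 0.12 with 0 genes more than 1 log2 unit below replicates 2 and 3. At an unadjusted p under 0.05, 2 were higher (Nhp2 and Shq1) and 1 lower (Dkc1). The share of all probe sets on that criterion was 10.4% in either direction. None passed the adjusted threshold (lowest limma adjusted p = 0.248). Without FLAG-SMN IP replicate 1 the median was -0.045, with Shq1 higher and Dkc1 lower at an unadjusted p under 0.05. Dkc1 alone met that criterion with either of FLAG-SMN IP replicates 2 and 3 left out, where the share of all probe sets was not counted. Without control IP replicate 1 the differences were -1.22 for Dkc1, -0.60 for Naf1 and 0.36 for Shq1. Without control IP replicate 2 they were -0.63 for Dkc1, 0.78 for Naf1 and 0.71 for Shq1. The groups did not overlap for 4 of the 15, with Nhp2 and Shq1 above and Dkc1 and Pih1d1 below, against 25.3% of all probe sets.

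The 4 core proteins differed among themselves. Dkc1, the gene of the pseudouridine synthase, was at 7.95, 7.68 and 8.08 in FLAG-SMN IP and 8.53 and 9.12 in control IP. All FLAG-SMN IP arrays lay below both controls, with a log2 difference of -0.93 (SE 0.24, 95% confidence interval -1.51 to -0.35; limma adjusted p = 0.248), or 1.90-fold lower signal without passing the adjusted threshold. With FLAG-SMN IP replicate 1 left out the difference was -0.95 (limma adjusted p = 0.168), and without control IP replicate 2 it was -0.63, no longer at an unadjusted p under 0.05.

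Nhp2, an RNA-binding core protein, was at 9.45, 9.34 and 9.36 in FLAG-SMN IP and 8.96 and 8.87 in control IP. The log2 difference was 0.46 (SE 0.17; limma adjusted p = 0.407), opposite in sign to that of Dkc1. Gar1, whose glycine- and arginine-rich ends are known to bind SMN, was at 8.88, 8.44 and 8.06 in FLAG-SMN IP and 9.07 and 8.29 in control IP. Nop10, a small protein that docks on dyskerin, was at 9.86, 10.74 and 10.19 in FLAG-SMN IP and 10.83 and 10.20 in control IP. The groups overlapped for Gar1 (difference -0.22, limma adjusted p = 0.938) and Nop10 (-0.25, limma adjusted p = 0.918).

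Assembly needs factors that leave before the particle matures. Shq1, which holds dyskerin before it meets RNA, was at 6.74, 7.01 and 7.11 in FLAG-SMN IP and 6.25 and 6.59 in control IP, a difference of 0.54 (SE 0.21; limma adjusted p = 0.436). Naf1, which occupies the place of Gar1 on new particles, was at 6.58, 6.22 and 6.49 in FLAG-SMN IP and 5.65 and 7.03 in control IP. Here the control arrays lay on either side of the FLAG-SMN IP arrays, with a difference of 0.091 (limma adjusted p = 0.989).

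The nucleolar chaperones Nolc1 and Tcof1 are related phosphoproteins, Nolc1 moving between nucleolus and Cajal body and Tcof1 acting with RNA polymerase I. Nolc1 was at 8.51, 8.67 and 8.94 in FLAG-SMN IP and 8.40 and 9.37 in control IP. Tcof1 was at 6.39, 7.26 and 7.30 in FLAG-SMN IP and 7.29 and 7.15 in control IP. Nolc1 had its extremes in the control arrays, and Tcof1 was level on 4 arrays and lower in FLAG-SMN IP replicate 1. The differences were -0.18 and -0.24 (limma adjusted p = 0.955 and 0.918).

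**Figure D4:**
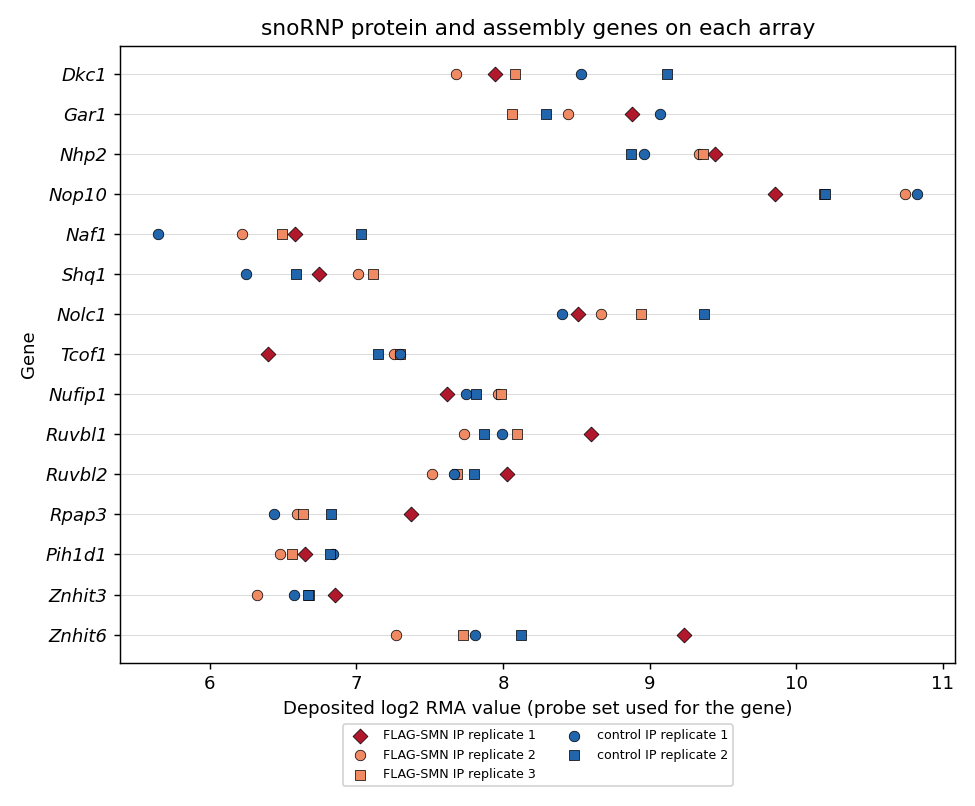
Deposited log2 values of the 15 protein and assembly genes (rows, by role from core proteins at the top to cofactors at the bottom) on each of the 5 arrays; each point is 1 array. The groups are apart for Dkc1, Nhp2, Shq1 and Pih1d1 and overlap for the other 11.

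The cofactors include the R2TP complex, an HSP90 partner made of the ATPases Ruvbl1 and Ruvbl2 with Rpap3 and Pih1d1, which helps to load snoRNP proteins. Ruvbl1 was at 8.60, 7.73 and 8.09 in FLAG-SMN IP and 7.99 and 7.87 in control IP, and Ruvbl2 at 8.03, 7.51 and 7.69 in FLAG-SMN IP and 7.66 and 7.80 in control IP. Rpap3 was at 7.37, 6.60 and 6.64 in FLAG-SMN IP and 6.44 and 6.83 in control IP. In these 3 genes FLAG-SMN IP replicate 1 was the highest of the 5 arrays, the opposite of its place for most snoRNAs. Pih1d1 was at 6.65, 6.48 and 6.56 in FLAG-SMN IP and 6.84 and 6.82 in control IP, with every FLAG-SMN IP array lower and a difference of -0.27 (SE 0.17; limma adjusted p = 0.716).

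Nufip1, Znhit3 and Znhit6 are bridging factors best known from box C/D particles. Nufip1 was at 7.62, 7.96 and 7.98 in FLAG-SMN IP and 7.75 and 7.82 in control IP. Znhit3 was at 6.85, 6.32 and 6.68 in FLAG-SMN IP and 6.58 and 6.67 in control IP. Znhit6 was at 9.24, 7.27 and 7.73 in FLAG-SMN IP and 7.81 and 8.13 in control IP. Znhit6 had the largest gap of replicate 1 among the 15 protein genes, 1.74 above replicates 2 and 3, so that its difference of 0.11 became -0.47 without that array (limma adjusted p = 0.991 and 0.486). Over the 7 cofactors, differences ran from -0.27 to 0.23 and 0 were at an unadjusted p under 0.05.

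Genes that act around H/ACA particles were likewise spread in both directions, and none passed the adjusted threshold. The counts at an unadjusted p below 0.05 in the 5 lists that follow stand beside shares of 4.14% higher and 6.31% lower among all probe sets. Of 12 pseudouridine synthases that work without a guide RNA, 2 were lower and 0 higher at an unadjusted p below 0.05, Pus7l (-0.64, limma adjusted p = 0.34) and Pusl1 (-0.44, limma adjusted p = 0.462). Of 9 genes for trimming the ends of H/ACA RNAs, 0 were higher and 1 lower. This was Tent4b, a poly(A) polymerase, at 7.64, 7.97 and 7.87 in FLAG-SMN IP and 8.46 and 8.57 in control IP (-0.68, SE 0.19; limma adjusted p = 0.264). The exosome nuclease gene Exosc10 followed with -0.56 (limma adjusted p = 0.669).

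Of 6 Cajal body and cap factor genes, 1 had a higher and 0 a lower value at an unadjusted p below 0.05. Wrap53, which brings H/ACA RNAs of Cajal bodies and telomerase RNA to that body, was at 7.94, 7.23 and 7.76 in FLAG-SMN IP and 6.71 and 6.92 in control IP (0.83, SE 0.25; limma adjusted p = 0.311). The cap-binding gene Ncbp1 had a difference of -0.38 (limma adjusted p = 0.749). Of 6 measured HSP90 and R2TP partner genes, 1 was higher, Wdr92 (0.55, limma adjusted p = 0.383), and 1 lower, Uri1 (-0.69, limma adjusted p = 0.36). Of 9 nucleolar protein genes, 0 were higher and 1 lower, Polr1a of RNA polymerase I (-0.78, limma adjusted p = 0.37), and Npm1 (nucleophosmin) had 0.96 (limma adjusted p = 0.508), its highest array being FLAG-SMN IP replicate 1. The list medians were -0.040, -0.070, 0.099, -0.29 and 0.018 in the order given, against 0.018 over all probe sets. When FLAG-SMN IP replicate 1 was left out they were 0.042, -0.12, 0.0056, -0.18 and -0.062, and 0 genes of these lists passed the adjusted threshold.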

How the data were processed

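Anti-FLAG precipitates of NSC-34 cells were profiled on 5 one-colour Affymetrix arrays (3 FLAG-SMN IP, 2 control IP), from 300 to 500 ng of RNA per the labels' protocols. The authors deposited log2 values made with RMA, per the submitters' processing notes; the RMA version, its settings and the genome build are not given there. RMA pulls arrays toward a common distribution, so a difference in total RNA recovered is not visible. Groups and replicate numbers came from sample titles. Of 34760 probe sets, 6573 with IDs below the lowest annotated ID were presumed to be controls and set aside. Of the 28187 tested, 21640 carried 1 symbol. By gene ID, 21553 matched the RefSeq table (GRCm38), which changed 0 symbols and gave the containing genes; it has no strand, so the same-strand condition planned for them was not applied.

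limma 3.58.1 in R 4.3.3 (lmFit, eBayes, 2-sided, no block) was fitted to the tested probe sets, with Benjamini-Hochberg adjustment over them, a threshold of 0.05 and 3 residual degrees of freedom. The number of arrays limits precision. The fit was also run on simulated data, with independent scatter of equal size on all arrays of a probe set. Those data held no deviating array such as FLAG-SMN IP replicate 1, so they do not bear on its effect. Members and gene lists were chosen with earlier results of these data known, so counts over them are descriptions. Per-array values are given for the 15 protein genes and for snoRNAs with the 6 smallest p, the 3 lowest differences or the 3 highest means; other lists name the 2 genes of smallest p. Alternatives were cyclic loess, brighter probe sets only, trend and robust moderation, array weights, the replicate block, all probe sets, the mean of a gene's probe sets, and leaving out each array. Hsp90ab1 and Nopchap1 had no probe set of their own. The 7 H/ACA probe sets carrying several symbols were left out of the comparison. matplotlib 3.10.9 (Python 3.11.15) drew the figures.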

Additional observations from a re-analysis of the deposited data

Results flagged for a closer look

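Several symbols are carried by 7 H/ACA probe sets, which were therefore left out of the comparison. Of these, 2 had signal above both control IP arrays in every FLAG-SMN IP array, against 12.1% of all probe sets. In 1, shared by Mir664 and Snora36b, every FLAG-SMN IP array lay below both controls, against 13.2% of all probe sets. The log2 difference there was -0.19 (limma adjusted p = 0.857). The probe set shared by Rpl12 and Snora65 was at 8.85, 9.69 and 9.0 in FLAG-SMN IP and 8.24 and 8.02 in control IP, a log2 difference of 1.05 (limma adjusted p = 0.255). The probe set shared by Snora19 and the microRNA genes Mir3084-1 and Mir3084-2 was at 4.05, 3.78 and 4.25 in FLAG-SMN IP and 3.34 and 3.48 in control IP, a log2 difference of 0.61 (limma adjusted p = 0.354). On every array it was dimmer than the middle presumed control probe set, for which the values were 4.45, 4.33 and 4.30 in FLAG-SMN IP and 4.49 and 4.55 in control IP. Which of the named genes gave the signal cannot be told apart. Without FLAG-SMN IP replicate 1, the probe set shared by Snora24 and Snhg8 passed the adjusted threshold, with a log2 difference of 1.81 (limma adjusted p = 0.0291). The low replicate 1 was not seen in all 7. Its gap was 0.046 for Snora36b and 0.034 for Snora19, both dimmer than the middle presumed control probe set on every array. It was -0.49 for Snora65, -1.73 for Snora28, -1.95 for Snora24, -1.99 for Snora43 and -2.55 for Snora34.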

How the results depend on the processing

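Over 12 alternatives, 9 snoRNAs and 5 protein genes kept the sign of their difference, and 11 snoRNAs and 10 protein genes changed it at least once. Snora70 kept an unadjusted p under 0.05 in all 12 (differences 0.69 to 0.95, limma adjusted p from 0.0902 to 0.721). Snora44 without FLAG-SMN IP replicate 1 was the 1 call on a member's main probe set (1.59); the second probe set of Snora21 passed there too (1.31). The count of probe sets past the adjusted threshold, 9 in the report, was 0 with cyclic loess, the replicate block or all probe sets of the table, 86 with array weights (26 higher and 60 lower), and 0 to 350 when 1 array was left out. The count of snoRNAs at an unadjusted p under 0.05, 1 in the report, was 3 with array weights and 1 to 15 when 1 FLAG-SMN IP array was left out. The count of protein genes, 3 in the report, was 1 with brighter probe sets, trend and robust moderation or the replicate block. It was 1 to 2 when 1 FLAG-SMN IP array was left out. Among all probe sets the share was 10.4% in either direction in the report. Without FLAG-SMN IP replicate 1 it was 5.92% higher and 7.3% lower, and in the other settings it was not counted. The replicate numbers are not stated to mark a shared day or culture, and deviations of same-numbered arrays correlated at 0.13 and -0.20; FLAG-SMN IP replicate 3 has no partner, so the block gave the differences found without it (snoRNA median 0.030).

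With array weights the differences were 0.024 for Snora21, 0.00020 for Snora23, 0.11 for Snora2b, 0.67 for Snora33, 0.17 for Snora52, 0.19 for Snora69, -0.065 for Ruvbl2 and -0.23 for Znhit6. Cyclic loess gave 0.057 for Snora33 and 0.016 for Znhit3, and the block gave -0.21 for Snora74a and -0.19 for Snora7a. Leaving out 1 array gave ranges of -0.12 to 0.67 for Snora20, -1.54 to 0.53 for Snora21, -0.95 to 0.28 for Snora23, -0.34 to 0.16 for Snora2b, -0.040 to 1.32 for Snora3, -0.72 to 0.25 for Snora30, -0.52 to 1.01 for Snora33, -1.0 to 0.45 for Snora52, -0.87 to 0.49 for Snora69, -0.21 to 1.67 for Snora74a and -0.19 to 0.87 for Snora7a. For protein genes the ranges were -0.61 to 0.17 for Gar1, -0.56 to 0.065 for Nop10, -0.60 to 0.78 for Naf1, -0.66 to 0.31 for Nolc1, -0.39 to 0.057 for Tcof1, -0.020 to 0.41 for Ruvbl1, -0.13 to 0.13 for Ruvbl2, -0.016 to 0.43 for Rpap3, -0.13 to 0.14 for Znhit3 and -0.47 to 0.51 for Znhit6. The cause of these changes was not tested.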
